A study of Mus musculus with 17 samples.

Results

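H3K9ac and H3K56ac were compared in the same cells, wild-type (WT) mouse embryonic stem cells differentiated with retinoic acid (RA), from the deposited peak lists of 1 ChIP-seq library for each mark. Peaks of both lists that overlapped by 1 bp or more were merged, and each merged region was called for both marks, for H3K9ac only or for H3K56ac only. The 2626 H3K9ac peaks and 2063 H3K56ac peaks gave 2938 regions, of 6400 regions formed by merging all 8 acetylation lists of the series. The series also holds both marks in untreated WT cells, in untreated Sirt6 knockout (KO) cells and in RA-treated KO cells, and Sirt6 ChIP-seq in untreated cells. The WT and KO lines were of strain 129 and were grown on irradiated mouse embryonic fibroblasts with LIF; feeder cells were depleted by plating before use. For RA treatment, LIF was withdrawn and cells were kept in 15% serum. All-trans RA (stock 0.01 M, diluted 10000-fold) was present for 2 days, and cells were collected on the day after RA medium was replaced. The WT cells carried Sirt6, and the labels name no other allele. Each group held 1 library, which leaves differences without a replicate check, and groups were not tested against each other; the 95% intervals reflect counting error alone. All positions are in mouse build mm9. Regions are given by their coordinates; the genes at them, and the marker genes of the cell type, were not analysed here.

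Acetylation removes the positive charge of a histone lysine. H3K9ac lies on the flexible tail of histone H3 and is known from active promoters and enhancers, whereas lysine 56 lies in the globular core near the point where DNA enters and leaves the nucleosome, and H3K56ac is linked to newly assembled and exchanged nucleosomes. Sirt6 is a NAD-dependent deacetylase known to remove both marks. RA binds nuclear receptors that act as transcription factors and drives embryonic stem cells out of pluripotency. The comparison therefore asks where marks that share an eraser were called together and where they were called apart.

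The H3K9ac library held 8525176 tags after filtering and the H3K56ac library 6145525, a ratio of 0.721, and the 8 acetylation libraries ranged from 5782181 to 10250030. Acetylation peaks were called with no control library, so places where reads pile up in any library were not removed. The untreated WT libraries stand apart in their fragment length, 155 and 175 bp against 198 to 227 bp in the other acetylation libraries. With every list cut to its 2000 strongest peaks by q, 77.9% of the H3K9ac peaks of RA-treated WT cells overlapped the H3K56ac list of the same cells (interval 76.0% to 79.7%). More of them, 84.5% (82.8% to 86.0%), overlapped the H3K9ac list of RA-treated KO cells. The H3K56ac peaks of RA-treated WT cells were overlapped by 78.1% from the H3K9ac list of the same cells, by 79.1% from the H3K56ac list of RA-treated KO cells and by 81.7% from the H3K9ac list of RA-treated KO cells. Seen from the H3K9ac list, the overlap of both marks within RA-treated WT cells thus lay between 2 overlaps with RA-treated KO lists. These were 74.5% with H3K56ac and 84.5% with H3K9ac. Seen from the H3K56ac list, the overlap within the same cells (78.1%) lay below both overlaps with RA-treated KO lists (79.1% and 81.7%).

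Most regions carried both marks, in populations of cells: a peak of each mark at one place does not show both on one nucleosome or in one cell, and fewer marked cells and less of a mark per cell cannot be told apart. There were 1739 regions with both (59.2% of 2938; 57.4% to 61.0%), 881 with H3K9ac only (30.0%; 28.4% to 31.7%) and 318 with H3K56ac only (10.8%; 9.75% to 12.0%). Seen from each list, 84.6% of the H3K56ac peaks (83.0% to 86.1%) and 66.5% of the H3K9ac peaks (64.6% to 68.2%) lay in regions with both. Of the 1739 shared regions, 1727 held 1 peak of each mark and the other 12 held 2 peaks of 1 mark, 6 in each direction. By length, shared regions took 72.0% of the base pairs under H3K9ac peaks and 87.5% of those under H3K56ac peaks. A region called for a single mark was rarely next to a peak of the other mark. A peak of the other mark lay within 1000 bp of 30 H3K9ac-only regions (3.41%) and of 10 H3K56ac-only regions (3.14%), and the median distance was 314326 bp and 273896 bp. When the H3K9ac list was cut to the 2063 strongest peaks, so that both lists were equally long, 1585 regions had both marks, 475 H3K9ac only and 472 H3K56ac only, but lists of one length give nearly equal single-mark numbers by construction. The 0.721-fold depth of the H3K56ac library moves with that excess, and its part was not tested.

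Whether the other mark was called depended on the strength of the peak. Each list was ordered by −log10 q and divided into 5 bins of like size. In the weakest bin of the H3K9ac list, 27.6% of peaks (23.9% to 31.5%) were overlapped by H3K56ac. That share was 43.6% in the second bin, 71.0% in the third, 90.5% in the fourth and 99.6% in the strongest, where 523 of 525 peaks were shared. In the H3K56ac list the share was 55.7% in the weakest bin, 75.5%, 93.9% and 97.8% in those that followed, and all 413 peaks of the strongest bin overlapped H3K9ac. Single-mark regions thus came mostly from the weaker calls of both lists.

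**Figure D1:**
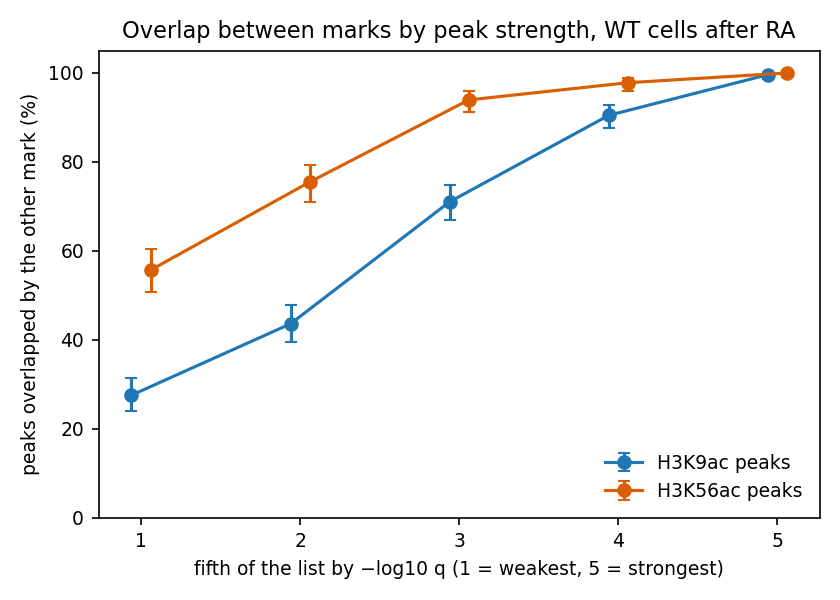
Share of peaks overlapped by a peak of the other mark (y, percent) in each of 5 bins of a list ordered by −log10 q (x, 1 weakest), for H3K9ac peaks (blue) and H3K56ac peaks (orange) of WT cells after RA; bars are Wilson 95% intervals for counting error. Both curves rise with strength, from 27.6% to 99.6% for H3K9ac and from 55.7% to 100% for H3K56ac, and H3K56ac lies above H3K9ac in each of the first 4 bins.

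Shared regions were ranked by the lower fold enrichment of both marks. Fold enrichment is the authors' own value of pileup over local background for each peak. This ranking favours regions where both folds are alike, so the near-equal folds of the first 5 are partly fixed by the choice. The region with the highest lower fold was chr13:86453020-86453364, with 38.4 for H3K9ac and 39.1 for H3K56ac and with both summits at the same base. Across the other 6 acetylation lists its fold lay between 35.6 and 38.7. It was followed by chrX:60379584-60379953 (35.9 and 36.4), chr12:3109831-3110220 (36.5 and 35.7), chr15:4618202-4618542 (38.1 and 35.7) and chr1:34008003-34008349 (35.5 and 36.0). All 5 were called in each of the 8 acetylation lists, and all but the one on chromosome 15 overlapped a WT Sirt6 peak. Their Sirt6 folds were 4.70, 12.0, 3.21 and 3.99 on chromosomes 13, X, 12 and 1, beside a median of 8.08 in the Sirt6 list. A Sirt6 peak was found at 10.0% of all shared regions. In the strongest bins by −log10 q it was found for 17.3% of H3K9ac and 23.2% of H3K56ac peaks. In all, 997 of the 1739 shared regions were called in each of the 8 lists.

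Where both marks were called, they peaked at the same place. In the 1727 regions with 1 peak of each, the median distance between summits was 16 bp (order-statistic interval 15 to 17 bp). The H3K56ac summit lay at a higher coordinate in 841 regions, at a lower one in 842 and at the same base in 44. The summits were within 50 bp of each other in 87.2% of regions (85.5% to 88.7%), and 9 regions had them over 200 bp apart. Strong regions were the tightest: the median distance was 22 bp in the third of regions with the lowest −log10 q (the lower of both marks) and 11 bp in the third with the highest. Regions with a Sirt6 peak had a median distance of 11 bp (8 to 14 bp), against 17 bp (15 to 18 bp) in those without; the former were also the stronger calls, with a median H3K9ac −log10 q of 48.5 against 28.4. The largest offsets came from long regions. They were 496 bp in a region of 1796 bp on the unplaced contig Un_random, 417 bp at chr6:29698197-29699052 and 413 bp at chr13:74666526-74667139.

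**Figure D2:**
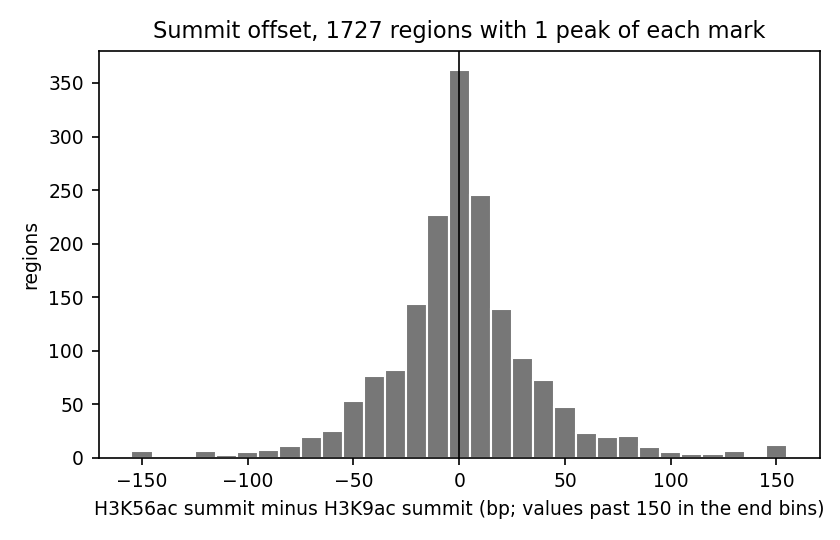
Histogram of the H3K56ac summit minus the H3K9ac summit (x, bp; values past 150 bp are in the end bins) over the 1727 regions with 1 peak of each mark (y, regions). The offsets are centred on 0, with 842 regions below and 841 above it.

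Peaks in shared regions were longer and stronger than peaks of the same list called for a single mark. H3K9ac peaks had a median length of 267 bp (264 to 270) in shared regions and 210 bp (208 to 212) in H3K9ac-only regions, beside a fragment length of 198 bp for that library. H3K56ac peaks had 265 bp (262 to 269) and 213 bp (211 to 216), beside a fragment length of 207 bp. Single-mark peaks were thus hardly longer than 1 fragment. The median fold enrichment of H3K9ac was 14.3 (13.9 to 14.7) in shared and 8.92 (8.92 to 9.04) in H3K9ac-only regions, and that of H3K56ac was 12.5 (12.2 to 12.7) in shared and 8.32 in H3K56ac-only regions. The quartiles of the fold were 10.5 and 20.2 for shared H3K9ac against 8.06 and 10.5 for H3K9ac-only peaks, and 9.51 and 17.8 for shared H3K56ac against 7.13 and 9.34 for H3K56ac-only peaks. At its summit a single-mark H3K9ac peak held a median of 17 tags, and a single-mark H3K56ac peak 14, against 33 and 25 in shared regions. Without the 997 regions of all 8 lists the shared medians were 234 bp and 11.5-fold for H3K9ac and 231 bp and 10.1-fold for H3K56ac, still above the single-mark values.

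The strongest single-mark regions were single-marked in these cells but not across the series. Of H3K9ac-only regions, chrX:53570215-53570447 had the highest fold, 20.3, and was called for both marks in untreated WT, untreated KO and RA-treated KO cells, with an H3K56ac fold of 29.5 in untreated WT cells. It was followed by chr15:98110810-98111077 (19.3), chrX:155450038-155450342 (17.1), chr14:81138432-81138708 (17.0) and chr4:73401218-73401548 (17.0). All 5 had an H3K56ac peak in untreated WT cells, a list that held 53.7% of H3K9ac-only regions and 69.9% of regions of all classes. The strongest H3K56ac-only regions were chr11:71027036-71027276 (19.1), chr3:14983563-14983930 (17.1), chr7:7719699-7719971 (16.4), chrX:138126279-138126524 (14.2) and chrX:102871479-102871719 (14.2). None of these 5 was called for either mark in untreated WT cells. There the H3K9ac list held 22.6% and the H3K56ac list 28.0% of H3K56ac-only regions, against 64.4% and 69.9% of all regions. All 5 had an H3K9ac peak in untreated KO cells and an H3K56ac peak in RA-treated KO cells. Those lists held 52.8% and 44.3% of H3K56ac-only regions, and 67.4% and 63.5% of all regions.

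The classes also differed in these calls beyond the named regions. Of the 318 H3K56ac-only regions, 163 (51.3%; 45.8% to 56.7%) were called in 1 or more of the 4 KO lists and in neither untreated WT list, and 11 (3.46%) showed the reverse. Of the 881 H3K9ac-only regions, 173 (19.6%; 17.1% to 22.4%) were called in KO lists but in no untreated WT list, and 104 (11.8%) showed the reverse. Among the 1739 shared regions the numbers were 199 (11.4%) and 9 (0.518%). Equally strong calls were not required in this comparison, and 4 KO lists gave a region more chances of a call than 2 untreated WT lists. The untreated WT libraries are also those of short fragment length (155 and 175 bp), and RA, genotype, cell line and library cannot be told apart with 1 library per group.

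The shares in each list were as follows. Over all 2938 regions, the share also called was 64.4% for untreated WT H3K9ac, 69.9% for untreated WT H3K56ac, 67.4% for untreated KO H3K9ac, 53.3% for untreated KO H3K56ac, 83.6% for H3K9ac in RA-treated KO cells and 63.5% for H3K56ac in those cells. Shared regions lay above all 6 of these values, at 77.8%, 85.9%, 88.8%, 76.3%, 97.8% and 86.9%. H3K9ac-only regions were found in 53.1% by untreated WT H3K9ac and in 53.7% by untreated WT H3K56ac, but in 30.4% by untreated KO H3K9ac and in 14.5% by untreated KO H3K56ac. H3K56ac-only regions showed the opposite order for H3K9ac, at 22.6% in untreated WT and 52.8% in untreated KO cells. For H3K56ac they were called in 28.0% and 34.9%, whose intervals overlap. In RA-treated KO cells the H3K9ac list held 66.7% of the H3K9ac-only and 52.5% of the H3K56ac-only regions, and the H3K56ac list held 24.4% and 44.3%.

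Most single-mark regions were called for the other mark in some other cell state, though less often than regions of all classes. Over all 2938 regions, the untreated WT H3K56ac list alone held 69.9%, and the RA-treated KO H3K9ac list alone held 83.6%. For 571 of the 881 H3K9ac-only regions (64.8%; 61.6% to 67.9%) H3K56ac was called in at least 1 of the other 3 states. H3K9ac recurred without any H3K56ac call in 181 (20.5%), and 129 (14.6%) were called in no other list. For 242 of the 318 H3K56ac-only regions (76.1%; 71.1% to 80.5%) H3K9ac was called in at least 1 of the other states. H3K56ac recurred without any H3K9ac call in 26 (8.18%), and 50 (15.7%) were called in no other list.

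**Figure D3:**
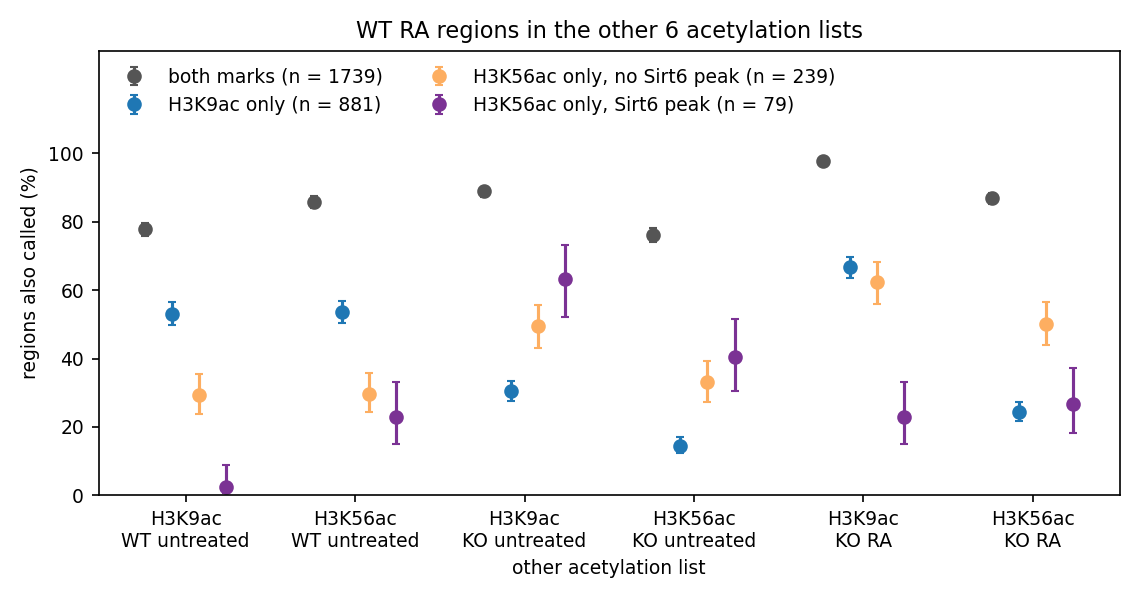
Share of regions also called in each of the other 6 acetylation lists (y, percent; x, the list), for shared regions (grey), H3K9ac-only regions (blue) and H3K56ac-only regions without (light orange) and with (purple) a WT Sirt6 peak; bars are Wilson 95% intervals for counting error. H3K56ac-only regions with a Sirt6 peak sit at 2.53% in untreated WT H3K9ac and at 63.3% in untreated KO H3K9ac.

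Sirt6 peaks of untreated WT cells were found most often at H3K56ac-only regions and hardly ever at H3K9ac-only regions. A Sirt6 peak overlapped 264 of all 2938 regions, or 8.99%. By class it was 79 of 318 H3K56ac-only regions (24.8%; 20.4% to 29.9%), 174 of 1739 shared regions (10.0%; 8.68% to 11.5%) and 11 of 881 H3K9ac-only regions (1.25%; 0.699% to 2.22%). The difference between the single-mark classes was 23.6 percentage points (Newcombe interval 19.1 to 28.7). The Sirt6 list came from 2008232 filtered tags of untreated cells, so these are sites called before RA; both Sirt6 libraries of KO cells gave 0 peaks. Outside the regions of all 8 lists, the share of shared regions fell to 5.12%. With a −log10 q of at least 10 required in every list, the H3K56ac-only share was 10.4% (6.68% to 15.8%) and the difference from H3K9ac-only regions 9.60 percentage points (5.79 to 15.1). Shared regions were then at 9.23% (7.88% to 10.8%), so under that limit the H3K56ac-only share was not distinguishable from theirs. The limit also cut the Sirt6 list, whose median −log10 q was 9.63, so most Sirt6 peaks were left out. The excess over shared regions was thus not seen without the weaker acetylation and Sirt6 calls, whose parts were not separated. With lists of equal length the H3K56ac-only share was 18.9%, the shared one 10.3% and the difference from H3K9ac-only regions 17.6 percentage points.

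H3K56ac-only regions at Sirt6 peaks were mostly weak calls on a raised local background. All 12 H3K56ac-only regions with a −log10 q of 5 or less overlapped a Sirt6 peak. Of the 8 H3K9ac-only regions that weak, 2 did (25%; 7.15% to 59.1%). Between 5 and 10 the share was 32.3% of 155 H3K56ac-only regions against 0.592% of 169 H3K9ac-only regions, and between 10 and 20 it was 10.7% of 140 against 1.38% of 581. Above 20 it was 2 of 11 against 0 of 123, for which the Wilson upper bound is 3.03%. The H3K56ac-only share was the higher one in each range, with few regions in the lowest and highest; these ranges were chosen after the data were seen. The background implied by the authors' pileup and fold had a median of 1.08 tags (0.955 to 1.14) at H3K56ac-only regions with a Sirt6 peak and 0.682 tags, the lowest value in the list, at those without. The median fold was 6.37 (6.02 to 6.63) with and 8.60 (8.32 to 8.92) without a Sirt6 peak, at medians of 13 and 14 tags.

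The Sirt6 peaks at H3K56ac-only regions were also of another kind than those at shared regions. The 78 Sirt6 peaks at H3K56ac-only regions had a median Sirt6 fold enrichment of 12.1 (11.1 to 13.3) and a median length of 622.5 bp (497 to 704). The 172 at shared regions had 5.84 (4.84 to 7.65) and 280.5 bp (265 to 297), and the whole list of 14510 Sirt6 peaks had 8.08 and 384 bp. Of the Sirt6 peaks at H3K56ac-only regions, 52 (66.7%; 55.6% to 76.1%) were among the 3628 of highest fold in the list and 6 among the 3628 of lowest fold. At shared regions 50 were among the highest and 89 among the lowest. The 11 Sirt6 peaks at H3K9ac-only regions had a median fold of 5.23, and 7 were among the 3628 of lowest fold. Regions of any class overlapped 1.78% of all Sirt6 peaks. Summit distances differed as well. The nearest Sirt6 summit lay a median of 12 bp (9 to 17 bp) from the H3K56ac summit in shared regions. In H3K56ac-only regions the distance was 56 bp (42 to 71 bp). There the Sirt6 peaks were longer and the H3K56ac calls weaker, with a median −log10 q of 6.61 against 47.3 in shared regions with Sirt6. The part of length and strength in the distance was not tested.

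**Figure D4:**
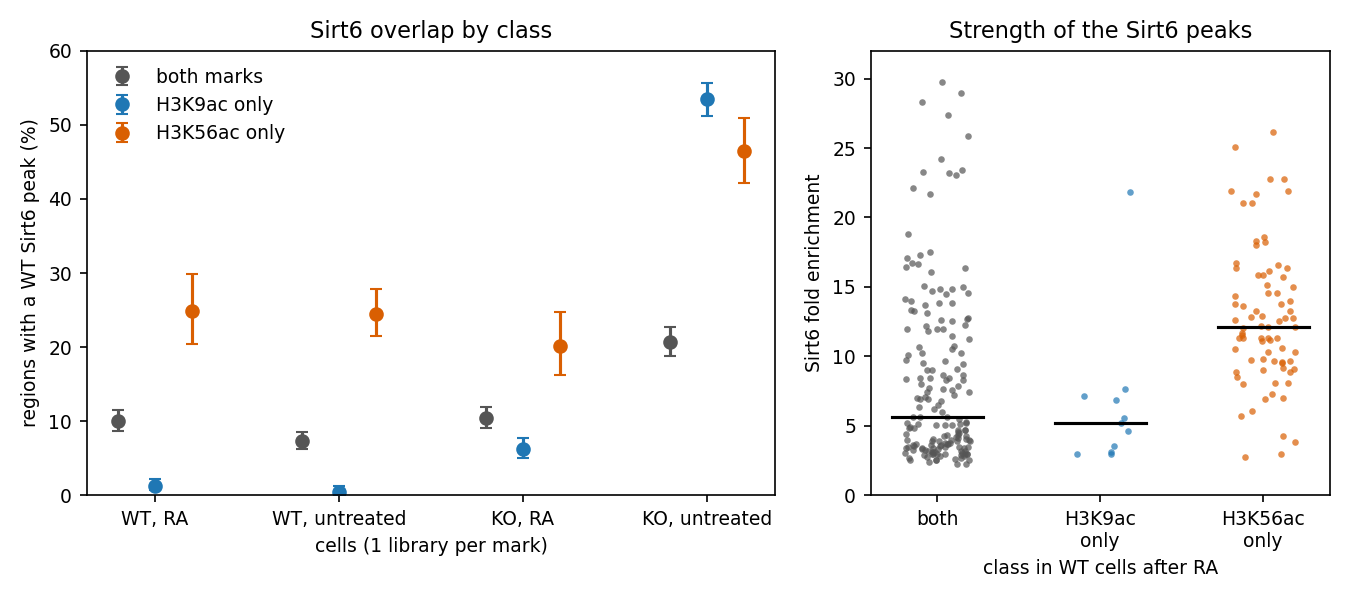
Left: share of regions with a WT Sirt6 peak (y, percent) by class in each of the 4 cell states (x), with Wilson 95% intervals; right: Sirt6 fold enrichment of the strongest Sirt6 peak at each region (y) by class in RA-treated WT cells (x), 1 point per region, with the median as a bar. In RA-treated WT cells the share is 24.8% for H3K56ac only, 10.0% for both marks and 1.25% for H3K9ac only.

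Among the H3K56ac-only regions, those with and without a Sirt6 peak differed in where else they were called. Those with a Sirt6 peak were also the weaker calls, with a median −log10 q of 6.61 against 10.7. The part of call strength in these differences was not tested. Untreated WT H3K9ac was called at 2 of the 79 with a Sirt6 peak (2.53%) and at 70 of the 239 without (29.3%), a difference of -26.8 percentage points (-33.1 to -18.5). Untreated KO H3K9ac was called at 50 (63.3%) and 118 (49.4%), a difference of 13.9 points (1.23 to 25.5). In RA-treated KO cells the H3K9ac list held 18 (22.8%) and 149 (62.3%), a difference of -39.6 points (-49.4 to -27.4), and the H3K56ac list 21 (26.6%) and 120 (50.2%), a difference of -23.6 points (-34.2 to -11.2). For untreated H3K56ac the intervals of the difference held 0 in both genotypes. At the 79 regions the KO H3K9ac peaks of untreated cells had a median fold of 6.69 (6.07 to 8.18), below the 8.24 of their whole list.

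Among H3K56ac-only regions with a Sirt6 peak, those of highest fold were chr3:14983563-14983930 (17.1), chr13:14788886-14789118 (13.9), chr11:48137928-48138152 (11.4), chr15:47012357-47012600 (11.3) and chr12:53264901-53265113 (10.3). All 5 had an H3K9ac peak in untreated KO cells, at folds of 20.1, 17.1, 11.5, 21.3 and 19.6, and none had one in untreated WT cells. Their Sirt6 folds were 3.80, 9.80, 5.69, 12.6 and 8.00. Of all 79 H3K56ac-only regions with a Sirt6 peak, 63.3% had an H3K9ac peak in untreated KO and 2.53% in untreated WT cells. By chromosome, the 79 regions were most numerous on chromosome 11, with 10 of its 16 H3K56ac-only regions, and on chromosome 8, with 9 of 23. Chromosome 1 had 7 of 19, chromosome 14 had 6 of 13 and chromosome 16 had 0 of 5. The share over all H3K56ac-only regions was 24.8%, and these small counts were not tested. The H3K9ac-only regions with a Sirt6 peak were led by chr12:49352853-49353066 (11.0), chr4:3041898-3042164 (9.97) and chrX:87821928-87822217 (9.76). All 3 had an H3K56ac peak in untreated WT cells, as did 8 of all 11 H3K9ac-only regions with a Sirt6 peak.

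Inside shared regions, the ratio of H3K9ac to H3K56ac fold was lower with a Sirt6 peak than without. The folds of both marks come from libraries of unlike depth and background, so a ratio of 1 does not mean equal acetylation. Over the 1727 regions with 1 peak of each, the H3K9ac fold was a median of 1.10 times the H3K56ac fold (quartiles 0.974 and 1.27), and 91.3% of regions lay within 1.5-fold. The folds rose together across regions, with a Pearson r of 0.886 on the log2 scale and a Spearman rho of 0.847; regions are not independent replicates, and each mark contributes 1 library. The H3K9ac fold was below the H3K56ac fold in 30.0% of these regions (518), in 92 of the 170 with a Sirt6 peak (54.1%; 46.6% to 61.4%) and in 426 of the 1557 without (27.4%; 25.2% to 29.6%). The median ratio of H3K9ac to H3K56ac fold was 0.989 with and 1.12 without a Sirt6 peak. Away from the regions of all 8 lists it was 0.862 at 38 regions with and 1.09 at 703 without, and the H3K9ac fold was the lower one in 73.7% (58.0% to 85.0%) and 35.1% (31.7% to 38.7%). Within the regions of all 8 lists the medians were 1.00 and 1.14. Shared regions with a Sirt6 peak also had the higher local background, with a median of 2.53 tags against 0.934 in the H3K56ac list. Its part in the lower ratio was not tested.

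The regions at the ends of this range were chosen by their ratio after RA, so their values in other lists are a description that the choice partly fixes. The highest ratios were 2.23 at chr4:89931537-89931752, 2.19 at chr1:103377508-103377817 and 2.13 at chr10:17078911-17079181, and in untreated WT cells the H3K56ac fold of these regions was 17.6, 15.2 and 21.7, beside 8.32, 7.73 and 8.69 after RA. The lowest ratios were 0.501 at chr1:109010379-109010684, 0.502 at chrY:324334-324600, 0.503 at chr2:77963652-77964034, 0.507 at chr9:38849431-38849665 and 0.513 at chr8:20019684-20020338. All 5 of these were called in each of the 4 KO lists. Those lists held 88.8% (untreated H3K9ac), 76.3% (untreated H3K56ac), 97.8% (RA H3K9ac) and 86.9% (RA H3K56ac) of all shared regions. Of the 5 highest ratios, the region at chr19:7826901-7827281 was called in all 4 KO lists and the others were not. The region on chromosome 8 overlapped a Sirt6 peak of 27.4-fold; the other 4 of lowest ratio and the 5 of highest ratio overlapped none.

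**Figure D5:**
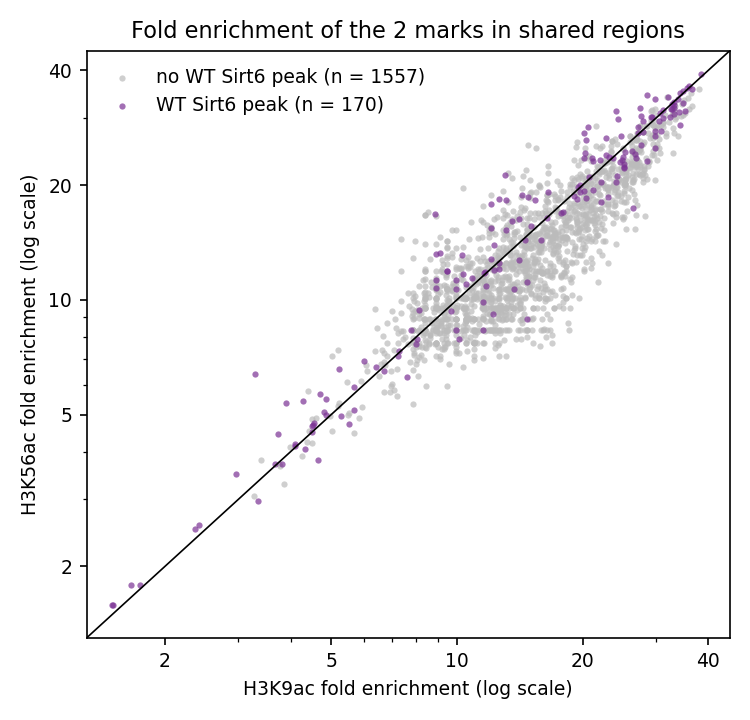
H3K9ac fold enrichment (x, log scale) against H3K56ac fold enrichment (y, log scale) in the 1727 regions with 1 peak of each mark in RA-treated WT cells, with the line of equal fold; purple points, the 170 regions with a WT Sirt6 peak, grey points, the 1557 without. Purple points scatter to both sides of the line (median ratio 0.989, range 0.513 to 1.65), and most grey points lie below it (median ratio 1.12).

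The other cell states gave the frame for these values. Regions with both marks made up 59.2% of regions in RA-treated WT cells, 59.0% in untreated WT, 54.3% in RA-treated KO and 42.8% in untreated KO cells, and the median summit distance was 16, 15, 19 and 18 bp in that order. The excess of Sirt6 overlap at H3K56ac-only over H3K9ac-only regions was 23.6 percentage points in RA-treated WT, 24.1 (20.9 to 27.4) in untreated WT and 13.9 (9.70 to 18.6) in RA-treated KO cells. In untreated KO cells it was -6.94 (-11.9 to -1.94), with 53.4% of 1847 H3K9ac-only and 46.5% of 486 H3K56ac-only regions at Sirt6 peaks. With the 2 lists of each state cut to equal length it was 17.6, 23.6, 14.9 (11.8 to 18.2) and 28.0 (23.0 to 32.7) in the same order, so the sign in untreated KO cells depended on the length of the H3K9ac list; the equal-length values of the other states were added after the data were seen. In RA-treated WT cells the share of shared regions with a lower H3K9ac than H3K56ac fold was higher at Sirt6 peaks, and so it was in the other states, at 68.3% against 37.6% in untreated WT, 52.3% against 25.3% in RA-treated KO and 49.6% against 34.3% in untreated KO cells.

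With chromosomes 1 to 19 pooled, the classes lay within a few percentage points of each other. These chromosomes held 83.5% of shared, 84.4% of H3K9ac-only and 88.7% of H3K56ac-only regions. Taken singly, they varied more. The H3K56ac-only share of a chromosome's regions ran from 4.95% on chromosome 16 to 21.7% on chromosome 19. The share with both marks ran from 47.5% on chromosome 12 to 65.3% on chromosome 16. These differences were not tested. Chromosome X held 178 of the 1739 shared, 91 of the 881 H3K9ac-only and 26 of the 318 H3K56ac-only regions. Unplaced contigs held 5.58% (4.59% to 6.76%), 4.88% (3.64% to 6.51%) and 2.52% (1.28% to 4.88%); there, 32 of the 97 shared regions overlapped a Sirt6 peak (33.0%; 24.4% to 42.8%), against 8.61% of shared regions on chromosomes 1 to 19. With chromosomes 1 to 19 alone, Sirt6 overlap was 26.2% of H3K56ac-only and 0.941% of H3K9ac-only regions.

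Windows of differing 5-hydroxymethylcytosine overlapped few of these regions. The overlap expected from position alone was not computed, so the small number does not show avoidance. Of the 3780 windows that the authors' deposited table lists for untreated KO against WT cells, 10 overlapped a region: 5 at shared regions, 2 at H3K9ac-only and 3 at H3K56ac-only regions. They touched 9 of the 2938 regions (0.306%; 0.161% to 0.581%), and the intervals of the classes overlapped. The authors' deposited table gave 8 of the 10 as lower and 2 as higher in KO. That split is not set against the split over all 3780 windows, so it gives no direction for these regions.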

How the data were processed

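The submitters' processing notes list BWA 0.5.9, MACS2 2.0.10, Picard and mm9, with no roles given. Each library has its own deposited peak list (q limit 0.01, 1 tag per position) with each peak's length, pileup signal at the summit, −log10 p and −log10 q, and fold enrichment as a ratio to local background, per the file headers. The authors used no control library for acetylation and whole-cell extract for Sirt6, per the file headers. The authors' table for CMS-IP, an enrichment for 5-hydroxymethylcytosine, gives counts, edgeR log2 fold changes and p-values, of which only positions and the sign of the fold change were used.

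From these, regions were merged, Sirt6 overlap was an overlap of 1 bp or more, and a region's value was that of its strongest peak. Local background was computed as (pileup + 1) / fold − 1; its lowest value, 0.906 for H3K9ac and 0.682 for H3K56ac, lay close to the 0.903 and 0.680 expected from tags, fragment length and genome size in the headers. Shares carry Wilson, differences of shares Newcombe and medians order-statistic 95% intervals. Named regions were the 5 of highest fold per class (the lower fold for both marks) and per class with Sirt6, the 5 highest and lowest fold ratios and the 3 largest offsets; some are printed. The gene lists of that rule were not applied, for want of mm9 gene positions. Merging and intervals were tested on simulated data. The members and lists were chosen with earlier results of these data known. The equal-length lists of the other cell states, the overlap of the 2000 strongest peaks and the strata of q were added after seeing the data. A further 4 columns of per-sample values were not used. Tables were joined in pandas 2.3.3 and numpy 2.4.6 under Python 3.11.15; intervals came from scipy 1.17.1, plots from matplotlib 3.10.9.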

Additional observations from a re-analysis of the deposited data

Results flagged for a closer look

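The excess of Sirt6 overlap at H3K56ac-only over H3K9ac-only regions had opposite signs in 2 cell states. It was 23.6 percentage points in RA-treated WT cells and -6.94 in untreated KO cells, with 1 library per mark in each, and the difference between the states was not tested. With lists of equal length both values were positive, at 17.6 and 28.0.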

How the results depend on the processing

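No paired analysis was possible because each group held 1 library and no result came from a test. Of 119 values recomputed under the alternatives, 87 stayed within the interval of the reported value (counts within 1.5-fold), 32 moved and 0 changed sign. Only the difference in Sirt6 share between the single-mark classes could change sign, because the other values cannot be negative. All 20 stayed with an overlap of 50% of the shorter peak and all 20 with peaks joined within 1000 bp, and all 5 Sirt6 values stayed with a Sirt6 peak within 1000 bp. With autosomes only, the Sirt6 share of shared regions moved, to 8.61%.

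With a −log10 q of at least 10, H3K56ac-only regions numbered 173, 63.5% of H3K9ac and 89.8% of H3K56ac peaks lay in shared regions, and the H3K56ac-only Sirt6 share was 10.4%, 9.60 points above H3K9ac-only. Median lengths were then 272 bp (shared) and 217 bp (single) for H3K9ac and 273 and 221 bp for H3K56ac, and median folds 15.3 and 9.45, and 13.7 and 9.49. With lists of equal length, H3K9ac-only regions numbered 475, 77.0% of H3K9ac and 77.1% of H3K56ac peaks were in shared regions, and the H3K56ac-only Sirt6 share was 18.9%, 17.6 points above H3K9ac-only; medians were 271 bp and 15.0-fold (shared H3K9ac), 222 bp and 10.4-fold (H3K9ac only) and 13.1-fold (shared H3K56ac). Without regions of all 8 lists, the Sirt6 share of shared regions was 5.12%, and shared medians were 234 bp and 11.5-fold for H3K9ac and 231 bp and 10.1-fold for H3K56ac. Under the q limit and equal lengths weaker peaks are dropped by construction; what else moved these values was not tested.

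A region counted as single-marked is one where the other mark was not called at this depth, not one where it is absent.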
